A study of Mus musculus with 6 samples.

Results

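The genes described here are 36 genes of DNA replication and cell division, taken by the gene names of the array's probe table from a list of S phase and mitosis genes. All 36 have at least 1 probe on the array, 19 of them S phase genes and 17 mitosis genes, and together they have 72 probes. On the array the S phase genes are named CDC6, MCM2, MCM3, MCM4, MCM5, MCM6, MCM7, CDC45L, GINS1, GINS2, PRIM1, POLA1, PCNA, RRM1, RRM2, TYMS, TK1, CCNE1 and CCNE2. The mitosis genes are CCNA2, CCNB1, CCNB2, CDC2A (Cdk1), PLK1, AURKA, AURKB, BUB1, BUB1B, CDC20, BIRC5, CENPA, CENPE, KIF11, KIF20A, MKI67 and TOP2A. A member was represented by its brightest detected probe. Only probes that reached a detection p below 0.05 on 3 or more of the 6 arrays were tested, and 32 of the 36 members passed (18 of S phase, 14 of mitosis), among 10904 genes that passed in all. The arrays measured total RNA of pre-B cells, the precursors of antibody-producing B cells, that were sorted from mouse embryos at E17.5. In the 3 Smchd1 null samples both copies of Smchd1 carried a gene trap. The gene encodes a chromatin protein of gene silencing, and the other 3 samples were wildtype. Both groups were C57BL/6 and had the transgene Eµ-Myc, in which an immunoglobulin enhancer drives Myc in B lineage cells, so no group without excess Myc is part of the comparison. The labels do not say whether an array holds 1 embryo or a pool, and p-values therefore measure the spread between these samples.

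A cell copies its DNA in S phase and divides in mitosis. Origins of replication are loaded with the ring-shaped Mcm2 to Mcm7 helicase, the helicase is switched on by Cdc45 and the GINS complex, and DNA polymerases extend primers on nucleotides made by enzymes such as ribonucleotide reductase. Later, cyclin A and cyclin B activate Cdk1, the Plk1 and Aurora kinases build the spindle, and the anaphase-promoting complex with its activator Cdc20 ends mitosis. Genes of S phase are mostly switched on by E2F factors, and genes of mitosis by the MuvB complex with B-Myb and Foxm1. Myc is known to push cells into the cycle, and large pre-B cells are a dividing stage of the B lineage.

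Smchd1 itself checked the labels. By its brightest probe it had log2 intensities of 4.64, 5.03 and 4.96 in the 3 Smchd1 null samples and 9.50, 9.65 and 9.67 in the wildtype samples, at least 22.3-fold lower in Smchd1 null (limma adjusted p = 5.6e-05). The other 2 tested Smchd1 probes were also lower in every Smchd1 null sample than in any wildtype sample, by less. One differed by -2.41 (SE 0.18, limma adjusted p = 0.00945). The other was detected on all arrays, at 6.13, 5.15 and 5.43 in Smchd1 null and 6.90, 6.64 and 6.43 in wildtype, and its difference of -1.09 (SE 0.27, limma adjusted p = 0.86) did not pass. Where the probes lie relative to the gene trap was not analysed here. Of 12 pre-B markers 8 were tested, and all 8 were detected on every array, while Pax5, Rag2 and Dntt did not pass the filter and Cd79a was not found by name. Smchd1 null replicate 3 stood apart from the other arrays, with correlations of 0.946 to 0.956 over the tested probes, against 0.984 to 0.994 for all pairs without it. The main results are therefore also given without it.

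None of the tested S phase and mitosis genes passed the test between Smchd1 null and wildtype. In limma's fit over 15878 probes, with Benjamini-Hochberg adjustment and a limit of 0.05, 0 of the 32 tested members passed in either direction, where 8 of 10904 genes, or 0.0734%, and 9 probes, or 0.0567%, passed. Of these genes 2 (0.0183%) were higher and 6 (0.055%) lower in Smchd1 null. At an unadjusted p under 0.05 there were also 0 members by their brightest probes, against 3.85% of all genes, and these unadjusted p-values ran from 0.165 to 0.982. Fold changes of Smchd1 null over wildtype lay between 0.768 and 1.28. The 95% interval of each member's log2 fold change, taken gene by gene at the brightest probe, lay between -0.99 and 0.93. At that probe the interval in this fit excluded a change of 2-fold in either direction for all 32 members, for Ccne2 narrowly. Of the alternatives, intervals were taken only for the omission of Smchd1 null replicate 3. Without Smchd1 null replicate 3 these intervals lay between -0.90 and 0.73 for the same 32 members, again with 0 members past the threshold, where 0.266% of all genes passed. At an unadjusted p under 0.05 there were 0 members by their brightest probes and 7.43% of all genes.

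Both groups of members lay close to the wildtype level. The median log2 fold change was -0.046 for the 18 S phase members, 8 higher and 10 lower, and 0.079 for the 14 mitosis members, 11 higher and 3 lower, beside a median of -0.013 over all genes. The size of the change without its sign had a median of 0.11 in S phase, 0.097 in mitosis and 0.15 over all genes. Without Smchd1 null replicate 3 the S phase median was -0.033, with 6 of 18 members higher, and the mitosis median turned to -0.040, with 6 of 14 higher. The S phase median turned to 0.007 without Smchd1 null replicate 1. Median scaling lowered the median of all genes to -0.18 and left 3 of 18 S phase and 3 of 14 mitosis members higher. Relative to that median the S phase members stood at -0.099 and the mitosis members at 0.055, each with the sign it had before.

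**Figure D1:**
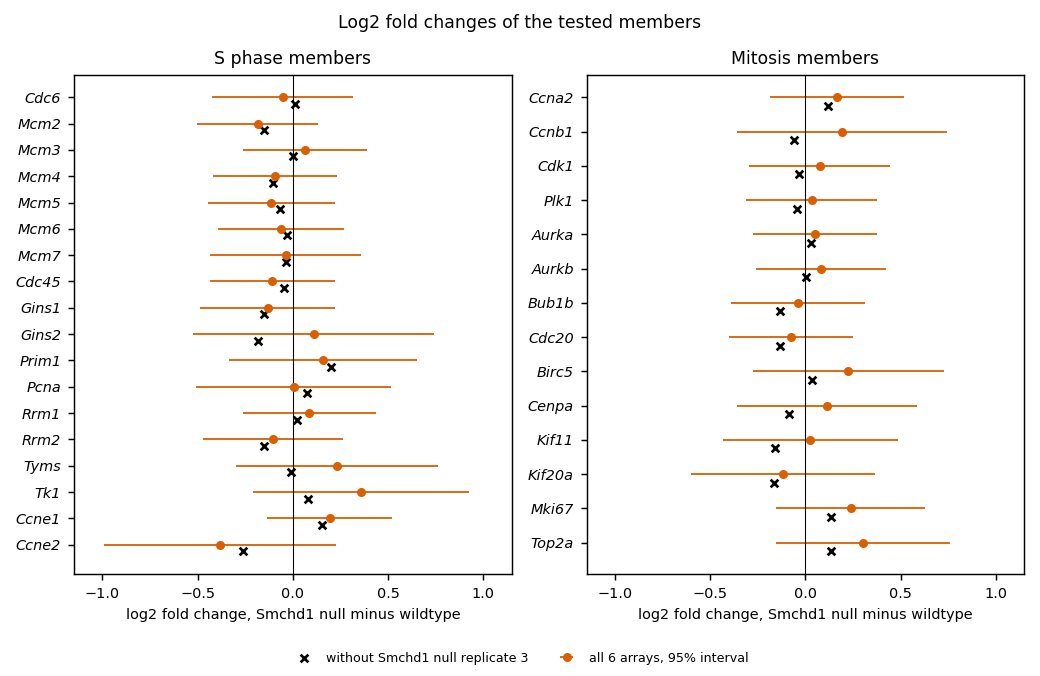
The log2 fold change of each tested member (x axis, Smchd1 null minus wildtype) is a point with its 95% interval from limma, for S phase at the left and mitosis at the right, and a cross gives the same value without Smchd1 null replicate 3. All 32 intervals include 0, and the crosses lie between -0.26 (Ccne2) and 0.20 (Prim1).

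Licensing genes had small and mostly negative values. Mcm2, a subunit of the replicative helicase, had log2 intensities of 11.03, 10.98 and 10.91 in Smchd1 null and 11.11, 11.09 and 11.28 in wildtype. All 3 Smchd1 null samples were below all wildtype samples, but the difference of -0.18 (SE 0.14, limma adjusted p = 0.934) did not pass, with a 95% interval from -0.50 to 0.13. Groups that do not overlap in this way were found at the brightest probe for 2 of the 32 members, Mcm2 lower and Tk1 higher. Of all genes 9.61% did not overlap, 4.89% lower and 4.72% higher. Without Smchd1 null replicate 3 the same 2 members did not overlap, against 22.6% of all genes, 10.9% lower and 11.7% higher. The other helicase subunits Mcm3, Mcm4, Mcm5, Mcm6 and Mcm7 had log2 fold changes of -0.11 to 0.063, and their groups overlapped. Cdc6, which loads the helicase onto DNA, had a log2 fold change of -0.054 (SE 0.16). Of the 7 licensing genes 6 had negative values, with a median of -0.061, and Mcm3 alone had a positive one, which was -0.001 without Smchd1 null replicate 3.

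The factors that switch the helicase on and those that start synthesis did not pass either. Cdc45, a part of the active helicase, showed a log2 fold change of -0.11 (SE 0.14), and for Gins1, a GINS subunit, it was -0.13 (SE 0.15). Gins2, another GINS subunit, had log2 intensities of 9.38, 9.31 and 10.21 in Smchd1 null and 9.70, 9.24 and 9.62 in wildtype, so that only Smchd1 null replicate 3 lay above the range of the wildtype samples. The difference was 0.11 (SE 0.27), and -0.18 (SE 0.17) without that array. Prim1, the catalytic subunit of primase, had a log2 fold change of 0.16 (SE 0.21). Pcna, the sliding clamp of the DNA polymerases, had the largest p of the S phase members, with log2 intensities of 8.29, 8.84 and 8.36 in Smchd1 null and 8.39, 8.82 and 8.26 in wildtype. The groups lay over each other, with 1 high sample in each and a difference of 0.005 (SE 0.22). Mcm7 followed with the next largest p, at 10.76, 11.21 and 10.98 in Smchd1 null and 10.90, 10.99 and 11.17 in wildtype. Pola1, the catalytic subunit of polymerase alpha, was detected on 1 Smchd1 null array and on no wildtype array, and was not tested.

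Among the enzymes of nucleotide supply, Tk1 and Tyms carried the largest values of a single array. Tk1, the thymidine kinase of dividing cells, had log2 intensities of 9.73, 9.74 and 10.56 in Smchd1 null and 9.66, 9.58 and 9.71 in wildtype. All 3 Smchd1 null samples were above all wildtype samples, replicates 1 and 2 narrowly. Its difference of 0.36 (SE 0.24, limma adjusted p = 0.934) had an interval from -0.21 to 0.93, and was 0.081 (SE 0.12) without Smchd1 null replicate 3. The second detected probe of Tk1 had 7.03, 7.18 and 7.25 in Smchd1 null and 6.90, 6.87 and 6.91 in wildtype, also without overlap, with a difference of 0.26 (SE 0.13). Tyms, thymidylate synthase, had 11.01, 10.95 and 11.71 in Smchd1 null and 10.95, 10.90 and 11.13 in wildtype, and only replicate 3 of the Smchd1 null samples was above the wildtype range. The difference was 0.23 (SE 0.23), and -0.011 (SE 0.13) without it. The array also has a probe named for the pseudogene Tyms-ps, and a share of its signal in the Tyms probes was not tested. Rrm1 and Rrm2, the subunits of ribonucleotide reductase, differed by 0.087 (SE 0.15) and -0.10 (SE 0.16).

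Both E cyclins, which activate Cdk2 at the entry into S phase, were detected on all arrays, with values of opposite sign. Ccne1 had log2 intensities of 7.85, 8.04 and 8.07 in Smchd1 null and 7.86, 7.69 and 7.82 in wildtype, a difference of 0.19 (SE 0.14, limma adjusted p = 0.934). Replicate 1 of the Smchd1 null samples lay within the wildtype range and the others lay above it. Ccne2 had 8.35, 7.51 and 7.57 in Smchd1 null and 7.90, 8.37 and 8.31 in wildtype, a difference of -0.38 (SE 0.26, limma adjusted p = 0.934), the lowest value of all members. Here Smchd1 null replicates 2 and 3 lay below every wildtype sample and replicate 1 lay near the top of the wildtype range. Without replicate 1 the difference was -0.65 and the limma adjusted p 0.505, and with array weights it was 0.379, the smallest of any member under any alternative.

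The genes of mitosis had mostly small positive values with all arrays. Among the cyclins and their kinase, Ccna2 (cyclin A2), which acts in S phase and in early mitosis, had log2 intensities of 6.56, 6.50 and 6.68 in Smchd1 null and 6.22, 6.47 and 6.55 in wildtype, a difference of 0.17 (SE 0.15). Ccnb1 (cyclin B1) had 10.68, 10.77 and 11.48 in Smchd1 null and 10.59, 10.89 and 10.86 in wildtype. Only replicate 3 of the Smchd1 null samples left the wildtype range, and the difference was 0.19 (SE 0.24), or -0.058 (SE 0.14) without it. Cdk1, listed on the array as Cdc2a, had a log2 fold change of 0.076 (SE 0.16) by 1 probe, while the remaining 2 probes were at background on every array.

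Kinases of mitosis and the spindle checkpoint had small values of either sign. Plk1, Aurka, Aurkb and Bub1b, which drive spindle assembly and hold back anaphase, had log2 fold changes of -0.038 to 0.081. Plk1 had log2 intensities of 11.93, 11.75 and 12.07 in Smchd1 null and 11.94, 11.91 and 11.79 in wildtype, with samples of both groups mixed in order and the second largest p of the mitosis members. Cdc20, the activator of the anaphase-promoting complex, had a log2 fold change of -0.076 (SE 0.14) by its brightest probe, and its 4 probes ran from -0.16 to 0.10. Birc5 (survivin), a subunit of the chromosomal passenger complex, had 11.98, 11.60 and 12.36 in Smchd1 null and 11.86, 11.61 and 11.81 in wildtype, a difference of 0.23 (SE 0.21), or 0.034 (SE 0.16) without Smchd1 null replicate 3, and its 3 probes ran from 0.13 to 0.23. Smchd1 null replicate 2 was the lowest of the 6 samples for Birc5 and replicate 3 the highest.

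Of the kinetochore and motor genes 2 had positive values and 1 a negative one, and all 3 had negative values without Smchd1 null replicate 3, with a median of -0.16. Cenpa, the histone H3 variant of centromeres, differed by 0.11 (SE 0.20) with all arrays and by -0.086 (SE 0.13) without that array. Kif11, the motor that pushes spindle poles apart, had the largest p of the mitosis members, with 9.83, 10.11 and 10.53 in Smchd1 null and 10.08, 10.13 and 10.19 in wildtype. The Smchd1 null samples spanned the wildtype range on both sides, with a difference of 0.026 (SE 0.20), or -0.16 (SE 0.14) without replicate 3. Kif20a, a motor of cytokinesis, lay near the detection limit, was detected on 2 Smchd1 null arrays and 1 wildtype array, and differed by -0.12 (SE 0.21), and by -0.16 without replicate 3.

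Top2a and Mki67 had the smallest p of the mitosis members. Top2a, topoisomerase II alpha, which untangles chromosomes, had log2 intensities of 11.77, 11.96 and 12.36 in Smchd1 null and 11.58, 11.68 and 11.93 in wildtype, a difference of 0.30 (SE 0.20, limma adjusted p = 0.934). Mki67, the Ki-67 protein of dividing cells, had 11.27, 11.46 and 11.67 in Smchd1 null and 11.04, 11.36 and 11.29 in wildtype, a difference of 0.24 (SE 0.17, limma adjusted p = 0.934). In both genes the groups overlapped and Smchd1 null replicate 3 was the highest sample, and without it the difference was 0.14 for each (SE 0.15).

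Ccnb2, Bub1 and Cenpe were not detected on any array. Their probes stayed below 5.1, where detection began at 5.08 to 5.19, so nothing can be said of their direction. A probe at background need not mean an absent transcript, since 2 of the 3 Cdk1 probes were at background while the third was bright on all arrays. Of the 32 tested members 31 were detected on all 6 arrays, Kif20a being the exception.

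The members of the 2 phases parted on 1 array. In Smchd1 null replicate 3 the median mitosis member stood 0.28 above the wildtype mean on the log2 scale, while the median S phase member stood at -0.055. In Smchd1 null replicates 1 and 2 the S phase medians were 0.025 and -0.039 and the mitosis medians -0.002 and -0.040. The wildtype samples ranged from -0.040 to 0.060 in S phase and from -0.083 to 0.051 in mitosis. The difference of S phase minus mitosis was thus 0.027, 0.001 and -0.33 in the Smchd1 null samples and 0.043, -0.050 and 0.009 in the wildtype samples. Smchd1 null replicate 3 was the highest of the 6 arrays for 12 of the 14 mitosis members and for 6 of the 18 S phase members, where it was the highest for 30.0% of all genes and the lowest for 35.4%. It was the lowest array for 0 mitosis members and for 3 S phase members.

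**Figure D2:**
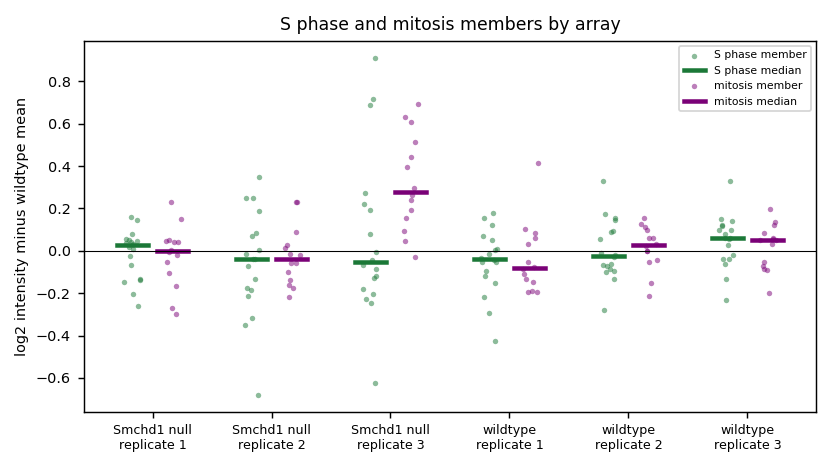
Points are members and bars their medians on each of the 6 arrays, S phase in green and mitosis in purple, as the log2 intensity minus the wildtype mean of the gene. The bars lie between -0.083 and 0.060 on 5 arrays, and on Smchd1 null replicate 3 the mitosis bar is at 0.28 and the S phase bar at -0.055.

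In that array the S phase members did not move as a block. Tk1, Tyms and Gins2 stood 0.91, 0.72 and 0.69 above the wildtype mean, in the range of Ccnb1 (0.69), Top2a (0.63) and Birc5 (0.61). Ccne2 stood at -0.62, and the Mcm2 to Mcm7 helicase genes had a median of -0.094, against -0.098 and -0.054 in Smchd1 null replicates 1 and 2. The summed linear intensity of the mitosis members was 39962, 37996 and 52340 in the 3 Smchd1 null samples and 39597, 40325 and 39990 in the wildtype samples, so that 5 arrays were nearly alike. For the S phase members the sums were 35601, 34996 and 37170 in Smchd1 null and 35644, 37477 and 37294 in wildtype, with all arrays alike.

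**Figure D3:**
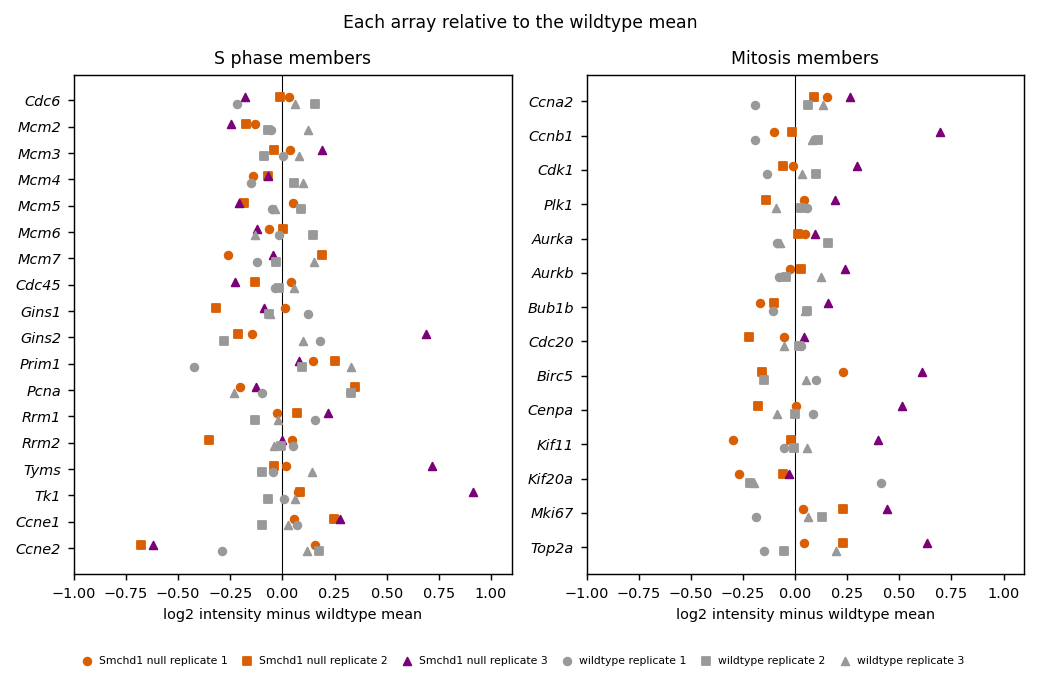
Each symbol is 1 array and gives the log2 intensity of a member minus its wildtype mean, with Smchd1 null in orange or purple drawn just above wildtype in grey, and S phase at the left of mitosis. The purple triangles of Smchd1 null replicate 3 lie at the right for 12 of 14 mitosis members, and in S phase Tk1 (0.91), Tyms (0.72) and Gins2 (0.69) stand out in the same array.

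Markers of cell types differed between the arrays, and those of pre-B cells were high in the same array as the mitosis members. The summed linear intensity of the 8 tested pre-B markers was 22736, 25999 and 75914 in the Smchd1 null samples, and 25070 to 26495 in the wildtype samples, so that replicate 3 was far above the other arrays. For 9 of 13 erythroid markers the sums were 16954, 46294 and 58567 in Smchd1 null and 25179 to 41124 in wildtype, where Gata1 did not pass the filter. For 11 of 13 myeloid markers they were 1809, 2270 and 12917 in Smchd1 null and 4982 to 13518 in wildtype. By this sum replicate 3 of the Smchd1 null samples was within the wildtype range and replicates 1 and 2 were below it. The single markers of replicate 3 differed, with Mpo (log2 12.06, wildtype 7.63 to 9.83), Prtn3, Ctsg and Csf1r above every wildtype sample. The other tested myeloid markers, among them Ltf, Ngp, Camp, S100a8 and S100a9, were within the wildtype range in that array. The 8 tested of 10 hepatocyte markers summed to 219, 231 and 857 in Smchd1 null and 2149 to 3465 in wildtype, with Alb not passing the filter. All 8 were lower in Smchd1 null without overlap, and 2 of them, Ambp and Afp, passed the limma test (adjusted p = 0.00945 and 0.0472). The 2 tested of 8 T and NK cell markers summed to 186, 366 and 98 in Smchd1 null and 259 to 304 in wildtype, and Cd3e, Cd3d, Cd4 and Cd8a did not pass. The part of these differences in the member values was not tested, and in bulk RNA more dividing cells and more RNA of these genes per cell cannot be told apart.

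Promoters of the members were read because the mitosis genes were high together in 1 array while the Mcm genes were not. RefSeq (build GRCm38.p6) gave a window of 250 bases before to 50 bases after the start for 29 of the 36 members, 30 windows in all because Mcm7 has 2. Both strands were searched for TTTGAA, the cell cycle homology region (CHR) that the MuvB complex binds, for TTTNNCGC with C or G at each N, an E2F site, and for CCAAT, the box bound by NF-Y. No run of letters matches more than 1 of these motifs. CHR letters stood in 2 of 16 S phase windows (12.5%) and in 10 of 14 mitosis windows (71.4%), against 17.9% of all 32851 windows. E2F letters stood in 6 of 16 S phase windows (37.5%) and in 1 of 14 mitosis windows (7.14%), against 2.26% of all. CCAAT stood in 12 of 16 S phase windows, in 13 of 14 mitosis windows (92.9%) and in 37.4% of all. A match describes the letters and does not show a bound site.

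**Figure D4:**
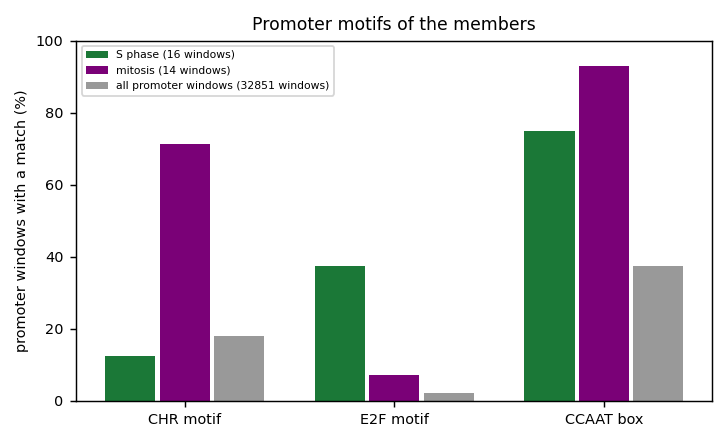
Bars give the percentage of RefSeq promoter windows that hold each motif on either strand, for S phase members (16 windows), mitosis members (14 windows) and all 32851 windows. CHR matches were most frequent in mitosis (71.4%) and E2F matches in S phase (37.5%).

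The 160 bases before the start are shown for 3 S phase genes with an E2F match and 4 mitosis genes with a CHR match, 5′ to 3′ on the strand of the gene, with CHR and E2F letters in capitals. The S phase genes Cdc6 (chr11:98907991-98908150, plus strand), Mcm5 (chr8:75109349-75109508, plus strand) and Mcm6 (chr1:128359706-128359865, minus strand) carry E2F letters only. In Mcm5 and Mcm6, 2 E2F matches on opposite strands run into each other. The mitosis genes are Cdk1 (chr10:69352913-69353072, minus strand), Cdc20 (chr4:118437344-118437503, minus strand), Kif11 (chr19:37376222-37376381, plus strand) and Top2a (chr11:99024190-99024349, minus strand). Each of the 4 holds CHR letters that begin 15 to 23 bases before the start, and Cdk1 holds a second CHR match and 1 E2F match further up.
Cdc6: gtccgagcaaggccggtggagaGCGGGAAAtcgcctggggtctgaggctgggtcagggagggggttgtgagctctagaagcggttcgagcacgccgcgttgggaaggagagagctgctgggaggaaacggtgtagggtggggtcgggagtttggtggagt
Mcm5: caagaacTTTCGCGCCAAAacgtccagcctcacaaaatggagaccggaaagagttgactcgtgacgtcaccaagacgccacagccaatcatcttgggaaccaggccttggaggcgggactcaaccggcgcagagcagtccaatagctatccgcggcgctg
Mcm6: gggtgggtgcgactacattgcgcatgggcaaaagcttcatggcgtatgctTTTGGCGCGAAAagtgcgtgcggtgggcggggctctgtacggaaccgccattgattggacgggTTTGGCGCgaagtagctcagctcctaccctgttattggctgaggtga
Cdk1: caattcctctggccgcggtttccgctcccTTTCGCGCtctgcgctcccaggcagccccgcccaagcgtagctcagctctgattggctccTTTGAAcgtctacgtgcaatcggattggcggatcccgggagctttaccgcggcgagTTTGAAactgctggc
Cdc20: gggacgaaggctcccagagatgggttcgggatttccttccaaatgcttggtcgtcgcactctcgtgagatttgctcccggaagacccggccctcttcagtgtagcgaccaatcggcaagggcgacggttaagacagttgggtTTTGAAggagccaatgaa
Kif11: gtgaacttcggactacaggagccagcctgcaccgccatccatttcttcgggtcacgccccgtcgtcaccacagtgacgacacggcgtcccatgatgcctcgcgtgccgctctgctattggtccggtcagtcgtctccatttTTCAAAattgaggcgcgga
Top2a: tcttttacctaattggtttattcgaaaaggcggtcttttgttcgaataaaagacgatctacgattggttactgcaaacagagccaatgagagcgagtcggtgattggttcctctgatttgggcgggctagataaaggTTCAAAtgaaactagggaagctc

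The members were also split by these letters rather than by phase. This split is no separate support, since the promoters were read because of the values in Smchd1 null replicate 3. The 6 tested members with E2F letters were Cdc6, Mcm3, Mcm5, Mcm6, Mcm7 and Cdk1, so that most are the helicase genes already described. Tk1, Tyms and Gins2, which were high in replicate 3, are not among them. Only 15 of the 19 S phase members had a window, so a member outside the letter groups need not have been searched. The 6 had a median of 0.012, -0.026 and -0.082 relative to the wildtype mean in the 3 Smchd1 null samples, and replicate 3 was the highest array for 2 of these 6. The 11 tested members with CHR letters had 0.004, -0.10 and 0.19, and for 8 of these 11 replicate 3 was the highest array. The 20 tested members with CCAAT had -0.002, -0.029 and 0.13, and for 11 of these 20 replicate 3 was the highest array, beside 30.0% of all genes. The 2 divisions share most of their genes, since CHR letters are mainly in mitosis genes, and Cdk1 is in both letter groups.

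None of the further genes of both processes passed the test either. Of 60 other replication genes 55 were tested, 16 higher and 39 lower with a median of -0.068, and of 91 other mitosis genes 81 were tested, 41 higher and 40 lower with a median of 0.009. In limma's fit 0 of these tested genes passed after adjustment, and 3 had an unadjusted p under 0.05, where 3.85% of all genes did. Chek1, the checkpoint kinase of replication stress, had log2 intensities of 6.29, 6.18 and 6.19 in Smchd1 null and 6.72, 7.01 and 6.73 in wildtype, with every Smchd1 null sample below every wildtype sample. Its difference of -0.60 (SE 0.15, limma adjusted p = 0.823) did not pass and was -0.58 without Smchd1 null replicate 3. Orc2 and Orc5, subunits of the origin recognition complex, had -0.40 (SE 0.19) and -0.39 (SE 0.23), and Rnaseh2a, a subunit of ribonuclease H2, had -0.55 (SE 0.34), with replicate 3 as the lowest array for all 3 genes. Without that array they had -0.26, -0.16 and -0.17, in the same order.

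Among the other mitosis genes, the kinetochore genes Knl1 and Dsn1 had log2 fold changes of -0.44 (SE 0.16) and -0.50 (SE 0.18) and did not overlap between groups. With all arrays, groups without overlap were found for 3 lower and 4 higher of the wider mitosis genes (8.64%) and for 3 lower and 1 higher of the wider replication genes (7.27%), against 9.61% of all genes. The 4 higher mitosis genes, named after their values were seen, were Kifc1, Ncapd2, Nusap1 and Bub3, with log2 fold changes of 0.22 to 0.29. Without Smchd1 null replicate 3 there were 20 lower and 7 higher among the 81 mitosis genes, and 6 lower and 6 higher among the 55 replication genes. Of all genes 10.9% were then lower and 11.7% higher without overlap. Mybl2, which encodes B-Myb, had log2 intensities of 9.51, 9.32 and 9.24 in Smchd1 null and 9.65, 9.64 and 9.65 in wildtype, a difference of -0.29 (SE 0.14), also without overlap. Foxm1, the partner factor of mitotic genes, had 7.78, 8.17 and 8.57 in Smchd1 null and 7.66, 7.87 and 7.66 in wildtype, a difference of 0.44 (SE 0.22), or 0.24 without replicate 3, the highest array. The limma adjusted p of each of these 4 genes was 0.934. In the wider lists Smchd1 null replicate 3 was the highest array for 14 of 55 replication genes (25.5%) and for 42 of 81 mitosis genes (51.9%), and the lowest for 28 (50.9%) and 11 (13.6%), beside 30.0% and 35.4% over all genes. CHR letters stood in 60.5% of the promoter windows of the wider mitosis genes, and E2F letters in 29.8% of those of the wider replication genes and 11.8% of those of the wider mitosis genes.

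Several probes read the same gene for 15 members, and their signs differed for 5, Cdc6, Mcm6, Rrm2, Cdc20 and Top2a. In Mcm6 the 4 probes ran from -0.20 to 0.013 and in Rrm2 the 3 probes ran from -0.10 to 0.019. Each of these probes had a value smaller in size than its own SE. The 3 tested Top2a probes had log2 fold changes of 0.30, 0.37 and -0.068, the last by the dimmest probe. The second probe of Mcm7 had -0.40, with the same sign as the brightest. Some intervals of dimmer probes reached past 2-fold. They were those of this second Mcm7 probe (-1.07 to 0.26), an Mcm4 probe (-1.08 to 0.87) and a Cdc6 probe (-0.33 to 1.13). In Cdc6 the brightest probe had -0.054, and the other 2 tested probes, each detected on part of the arrays, had 0.40 (SE 0.31) and -0.46 (SE 0.16). The probe with -0.46 lay near the detection limit, detected on 1 Smchd1 null and 3 wildtype arrays. Its groups did not overlap, with a limma unadjusted p of 0.0228 and an adjusted p of 0.934. At the brightest probe each member's value rests on a mean of 33.2 to 66.5 beads per array. The standard error of the bead mean, on the log2 scale of the raw intensity, had a median over arrays of 0.034 to 0.084 across the members, which is below the median SD between samples of 0.17 in Smchd1 null and 0.13 in wildtype. The members' SDs were larger in Smchd1 null for 23 of 32, and over all genes the median SD was 0.26 in Smchd1 null and 0.13 in wildtype.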

How the data were processed

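Illumina MouseWG-6 v2 arrays gave the deposited intensity of each probe, a linear mean over its beads that GenomeStudio 1.8.0 exported with no normalization, per the file headers. BeadStudio, R 2.15.1 and limma 3.12.1 appear in the submitters' processing notes. Detection p-values were deposited beside them, in one table as 1 minus p. The deposited log2 values were made with neqc, per the deposited readme, and the largest difference from the values used here was 5e-09.

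Here 45281 probes and 974 control probes (936 negative) went through neqc (R 4.3.3, limma 3.58.1, offset 16), and 15878 probes with a detection p under 0.05 on at least 3 arrays were tested with lmFit and eBayes, Smchd1 null minus wildtype, two-sided, without covariates. Fold changes are on this log2 scale. Per array 15309 to 16447 probes were detected, and 6 arrays limit the precision. Probe names were matched to RefSeq (78.9% of probes); probe sequences were not used here. The tests were checked on simulated data, where they found 37% of the single-probe changes of log2 1 and 84.6% of those of log2 2. A member below the threshold therefore need not be without a change. The members and lists were chosen with earlier results of these data known, so lists get counts and medians only. Named were Smchd1, the 4 smallest and 2 largest p per phase, non-overlapping members, members with probes of different sign and the 4 smallest p per wider list. Outside this rule, Gins2, Tyms and Ccnb1 were also given array by array. They were among the highest members in Smchd1 null replicate 3. Same-numbered samples did not deviate together (r of 0.023, 0.038 and -0.007), so numbers were not taken as pairs. All arrays lay on 1 BeadChip.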

Additional observations from a re-analysis of the deposited data

How the results depend on the processing

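Over 15 alternatives (background correction, offset, scaling, deposited values, detection filters, moderation, array weights, the replicate block and the omission of each array) 0 of 479 refitted member values passed the threshold, with a smallest adjusted p of 0.379. The sign turned under at least 1 of them for 20 of the 32 members and under none for 12. The deposited values, the changed moderation and the replicate block leave the fold changes as they were and could not turn a sign. For 3 of the 20 it turned only under median scaling, which also lowered the median of all genes, and for 17 it turned under another alternative. Median scaling gave medians of -0.28 for S phase, -0.12 for mitosis, -0.29 for the wider replication list and -0.18 for the wider mitosis list, when the median of all genes was -0.18. Over the omission of single arrays the S phase median ran from -0.069 to 0.007, the mitosis median from -0.040 to 0.15, S phase minus mitosis from -0.19 to 0.007, the wider replication median from -0.099 to -0.028 and the wider mitosis median from -0.036 to 0.064. Array weights, lowest for Smchd1 null replicate 3 (0.165), also turned the mitosis median, to -0.026 with 5 of 14 members higher. The S phase median was then -0.040 and S phase minus mitosis -0.014. The probes past the threshold numbered 9, and 5 with normexp without controls, 56 with median scaling, 2 when every array had to reach a detection p of 0.01, 52 with array weights, 14 at an adjusted p under 0.1, 641 at an unadjusted p under 0.05, and 2 to 41 when an array was left out (41 without Smchd1 null replicate 3). With the replicate block 2 probes passed and 0 members. The block is balanced between the groups, so the S phase and mitosis medians could not move. In the wider lists 3 genes had an unadjusted p under 0.05. The cause of these shifts was not tested.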
